A study of Arabidopsis thaliana with 15 samples.

Results

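The 10 Arabidopsis thaliana genes described here write, maintain or erase DNA methylation, or make the double-stranded RNA that feeds silencing: NRPD1 (AT1G63020), NRPE1 (AT2G40030), RDR1 (AT1G14790), RDR2 (AT4G11130), SGS3 (AT5G23570), DRM2 (AT5G14620), MET1 (AT5G49160), CMT3 (AT1G69770), DDM1 (AT5G66750) and ROS1 (AT2G36490). They were taken by locus identifier from a list and are 10 of 73194 rows of the RNA-seq table. All 10 had counts, and all 10 were among the 18609 features that passed the filter on low counts. RNA was compared between leaves of prp4k3 plants, a line that the series' design text describes as carrying an artificial microRNA named amiR-PRP4K3, and leaves of Col-0, the wild-type accession. The plants of both genotypes were 3 weeks old and untreated, and each genotype had 3 libraries of total RNA and 3 of small RNA. Neither the promoter of the artificial microRNA nor the number of independent prp4k3 lines is stated in the labels. Libraries of se-2 that the labels also name were not analysed here. Whether replicate libraries derive from different plants is not stated, so every p-value below reflects library-to-library spread that may be purely technical.

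In RNA-directed DNA methylation, RNA polymerase IV makes short transcripts that RDR2 copies into double-stranded RNA, a Dicer cuts them into small interfering RNAs, and Argonaute proteins carry these to transcripts of RNA polymerase V, where the methyltransferase DRM2 acts. Methylation is then copied at each round of DNA replication by MET1 at CG sites and by CMT3 at CHG sites, with the chromatin remodeller DDM1, and ROS1 removes it by base excision. RDR1 and SGS3 are better known from post-transcriptional silencing and antiviral defence, so the list is wider than RNA-directed DNA methylation in the strict sense. In leaves the methyltransferases and the polymerases that guide them are known for keeping transposons and repeats silent, and ROS1 for opposing this.

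RNA-seq libraries held between 16041754 and 16955629 counts in prp4k3 and between 18305640 and 19344157 counts in Col-0. Plastid genes took 37.8% to 39.5% of counts in prp4k3 and 48.0% to 50.8% in Col-0, so the choice of scaling matters for every nuclear gene. The leaf markers were among the most abundant transcripts in both genotypes, and all 6 were called lower in prp4k3, beside 31.9% of all tested features. Under total-count scaling 5 were, and RCA, the activase of Rubisco, lay at -0.15 (adjusted p = 0.282). In bulk leaves fewer cells of a type and less RNA per cell cannot be told apart. The kinase genes PRP4KA, PRP4KB and PRP4KC were taken here as possible targets, without symbols in the reference table. PRP4KA (AT3G25840) averaged 6.25 ± 0.231 CPM in prp4k3 and 10.03 ± 0.913 CPM in Col-0 (SD, n = 3 each). CPM here are read counts relative to the TMM-scaled library size. The log2 fold change of AT3G25840 was -0.68 on the TMM scale (edgeR adjusted p = 0.00116) and 0.16 under total-count scaling (adjusted p = 0.282). PRP4KB (AT1G13350) was not called, at -0.41 on the TMM scale (adjusted p = 0.0646), and lay at 0.43 under total-count scaling (adjusted p = 0.0416). PRP4KC (AT3G53640) had 0 counts in every library.

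Transcripts of 8 of the 10 genes were higher in prp4k3, and 0 were lower. Of all 18609 tested features 65.8% were called, 33.9% as higher and 31.9% as lower (edgeR quasi-likelihood test, threshold 0.05 on the adjusted p, prp4k3 against Col-0). RDR1, NRPD1, SGS3, RDR2 and DDM1 rose by more than 2-fold, which was so for 19% of all tested features. The methyltransferase genes DRM2 and MET1 were not called. The median log2 fold change over the 10 genes was 0.95, against 0.02 over all tested features. In 7 of the 10 genes every prp4k3 library lay above every Col-0 library, which was so for 36.5% of all tested features, and 70.5% of all features were apart in one direction or the other.

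**Figure D1:**
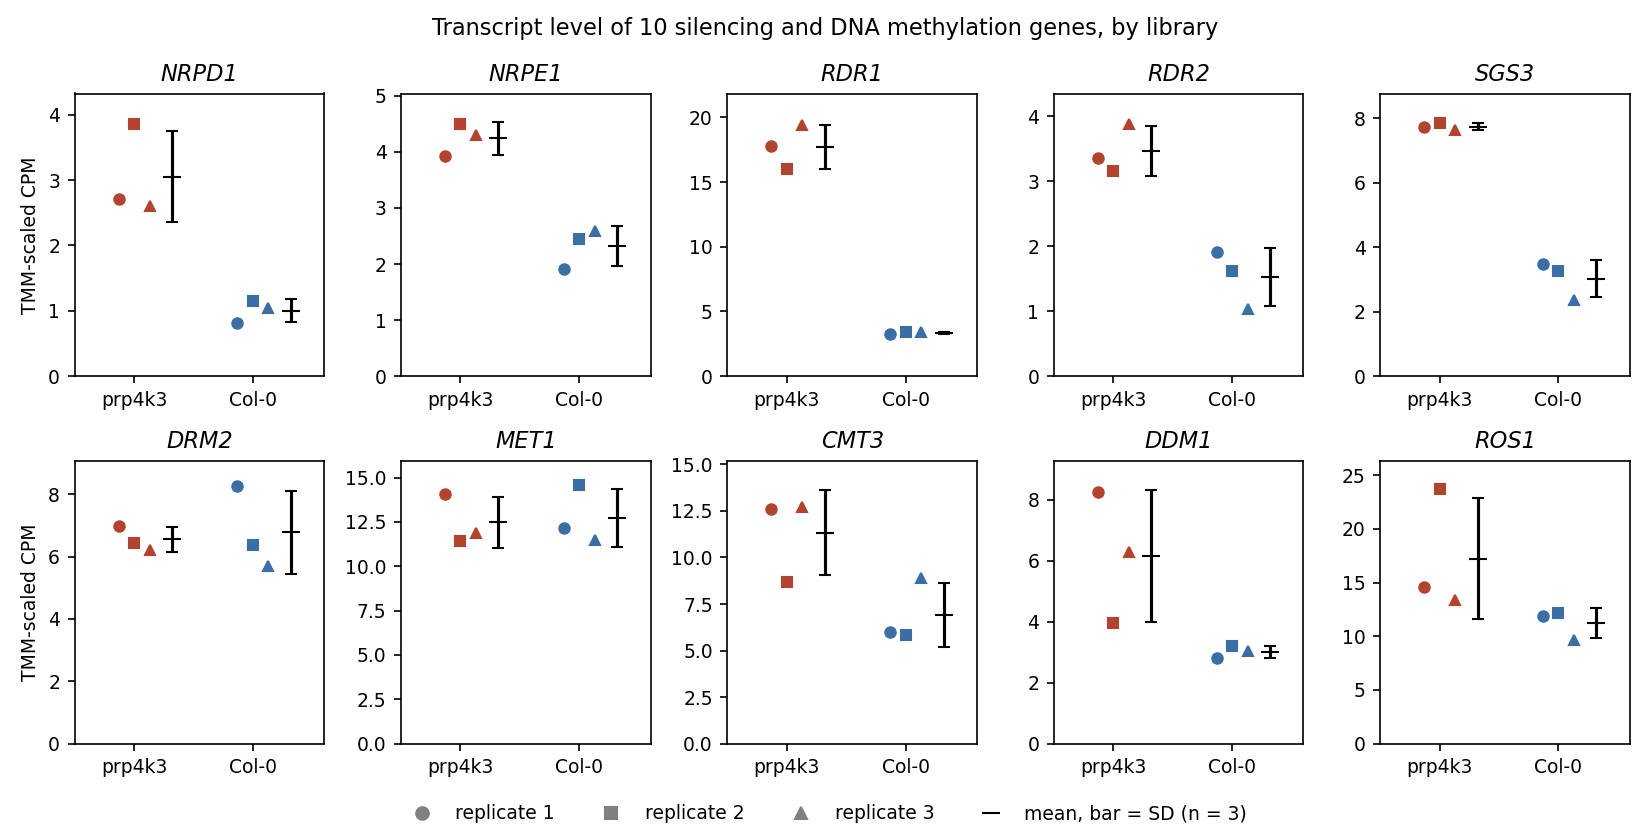
TMM-scaled CPM of each of the 10 genes (vertical axis from 0) in the 3 prp4k3 libraries and the 3 Col-0 libraries, with marker shapes for replicate numbers and bars for mean and SD. RDR1 shows the widest gap, with prp4k3 between 16 and 19.4 CPM, while DRM2, MET1 and CMT3 overlap between genotypes.

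Both polymerase genes rose. NRPD1, which encodes the largest subunit of RNA polymerase IV, had 2.70, 3.85 and 2.61 CPM in prp4k3 replicates 1 to 3, against 0.811, 1.15 and 1.04 CPM in Col-0. The groups did not overlap, and prp4k3 replicate 2 was the highest library. NRPD1 rose by 1.6 ± 0.27 on the log2 scale (SE; adjusted p = 0.000408), a fold of 3.03 with a 95% interval of 1.995 to 4.60. In Col-0 it rested on 42 counts over the 3 libraries, the fewest of the 10 genes. NRPE1, the matching subunit of RNA polymerase V, had 3.93, 4.50 and 4.30 CPM in prp4k3, against 1.92, 2.44 and 2.59 CPM in Col-0. These groups were also apart, and NRPE1 rose by 0.87 ± 0.18 (adjusted p = 0.00177), a fold of 1.83 (95% interval 1.38 to 2.41).

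The RNA-dependent RNA polymerase genes included the largest rise among the 10. RDR1, known as a gene induced by viruses and salicylic acid, had 408, 345 and 424 counts in prp4k3, against 44, 50 and 46 counts in Col-0. On the CPM scale these were 17.8, 16 and 19.4 in prp4k3, against 3.24, 3.39 and 3.4 in Col-0, with no overlap and with Col-0 libraries close to each other. RDR1 rose by 2.40 ± 0.14 (adjusted p = 9.70e-07), a fold of 5.29 (95% interval 4.26 to 6.57), and 94.8% of tested features had a lower log2 fold change. It was the sole gene of the 10 whose annotated span overlaps another gene in the reference table. That neighbour, AT1G14780, averaged 5.26 ± 0.433 CPM in prp4k3 and 0.690 ± 0.114 CPM in Col-0 (SD, n = 3 each) and rose by 2.91 ± 0.24 (adjusted p = 2.95e-06). The library kit marks strand per the labels, but the strand setting of the counting is not stated, so reads of the overlapping stretch cannot be told apart.

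RDR2, the partner of RNA polymerase IV, had 3.36, 3.16 and 3.89 CPM in prp4k3, against 1.92, 1.63 and 1.04 CPM in Col-0. All prp4k3 libraries were above all Col-0 libraries, and RDR2 rose by 1.18 ± 0.24 (adjusted p = 0.00146), a fold of 2.26 (95% interval 1.56 to 3.27). SGS3, an RNA-binding protein that works with RDR6 to make double-stranded RNA from cleaved transcripts, had 7.72, 7.85 and 7.64 CPM in prp4k3, against 3.47, 3.26 and 2.37 CPM in Col-0. SGS3 was the steadiest of the 10 genes in prp4k3, with a coefficient of variation of 1.33%, where counting error alone gives 7.65%. It rose by 1.35 ± 0.17 (adjusted p = 7.69e-05), a fold of 2.55 (95% interval 1.96 to 3.31).

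Among the methyltransferase genes CMT3 was called and the other two were not. DRM2, the methyltransferase that acts de novo in all sequence contexts, had 6.98, 6.45 and 6.22 CPM in prp4k3, against 8.26, 6.37 and 5.70 CPM in Col-0. The groups overlapped, with a log2 fold change of -0.05 ± 0.16 (adjusted p = 0.809) and a 95% interval of 0.751 to 1.25 for the fold. MET1, which maintains CG methylation behind the replication fork, had 14.1, 11.4 and 11.9 CPM in prp4k3, against 12.2, 14.6 and 11.5 CPM in Col-0. These groups also overlapped, with a log2 fold change of -0.03 ± 0.14 (adjusted p = 0.853) and an interval of 0.787 to 1.22 for the fold, so a 2-fold change of either gene on this scale lies outside its interval. CMT3, the plant-specific methyltransferase of CHG sites, had 12.6, 8.68 and 12.7 CPM in prp4k3, against 5.97, 5.83 and 8.88 CPM in Col-0. Its prp4k3 replicate 2 lay just below Col-0 replicate 3, so the groups overlapped, and CMT3 rose by 0.72 ± 0.21 (adjusted p = 0.0121), a fold of 1.65 (95% interval 1.19 to 2.28). Leaving out Col-0 replicate 2 ended that call (0.60, adjusted p = 0.0591).

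DDM1, a nucleosome remodeller that opens heterochromatin to the methyltransferases, had 8.24, 3.95 and 6.27 CPM in prp4k3, against 2.80, 3.19 and 3.03 CPM in Col-0. The groups were apart, but the prp4k3 libraries spread by a coefficient of variation of 35%, where counting error alone gives 8.54%. DDM1 rose by 1.03 ± 0.27 (adjusted p = 0.00630), a fold of 2.05 (95% interval 1.35 to 3.09). ROS1, the DNA glycosylase that starts active demethylation, had 14.6, 23.7 and 13.4 CPM in prp4k3, against 11.9, 12.1 and 9.62 CPM in Col-0. All prp4k3 libraries were above all Col-0 libraries, and ROS1 rose by 0.62 ± 0.22 (adjusted p = 0.0291), a fold of 1.53 (95% interval 1.1 to 2.15). Without prp4k3 replicate 2, its highest library, the log2 fold change was 0.31 (adjusted p = 0.0801), and the call was also lost without Col-0 replicate 1 (0.65, adjusted p = 0.0542), replicate 2 (0.67, adjusted p = 0.0573) or replicate 3 (0.51, adjusted p = 0.0942).

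Within prp4k3, replicate 2 stood at an end of the range for every one of the 10 genes but DRM2. It was the highest of the 3 libraries for ROS1, NRPD1, NRPE1 and SGS3, and the lowest for RDR1, RDR2, MET1, CMT3 and DDM1. As a library it also stood apart, with a chi-square per degree of freedom of 14.8 and 17.8 against replicates 1 and 3. Replicates 1 and 3 gave 7.27 against each other. How often replicate 2 lay at an end over all tested features was not computed. The widest relative spread in prp4k3 was that of DDM1, ROS1, NRPD1 and CMT3, with coefficients of variation of 35%, 32.7%, 22.7% and 20.3%. Counting error alone gives 8.54% for DDM1, 5.14% for ROS1, 12.2% for NRPD1 and 6.31% for CMT3.

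Scaling changed the sizes of all 10 log2 fold changes and the calls of DRM2 and MET1. Under total-count scaling all tested features had a median of 0.86 in log2 fold change, and when libraries were scaled to the counts of nuclear genes alone, an alternative chosen after seeing the data, it was 0.59. All 10 genes were called higher under both, where 67.1% and 56% of all tested features were called higher. DRM2 lay at 0.79 under total counts and 0.52 under nuclear-gene totals, and MET1 at 0.81 and 0.54, all 4 values close to the median shift of the scaling itself. RDR1 lay at 3.24 and 2.98, and ROS1 at 1.46 and 1.19. The authors' deposited table, which uses their own scaling, gives the same 8 genes a positive log2 fold change with an adjusted p of at most 0.00709, from 0.65 for ROS1 to 2.44 for RDR1, and gives DRM2 -0.02 and MET1 0.00.

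**Figure D2:**
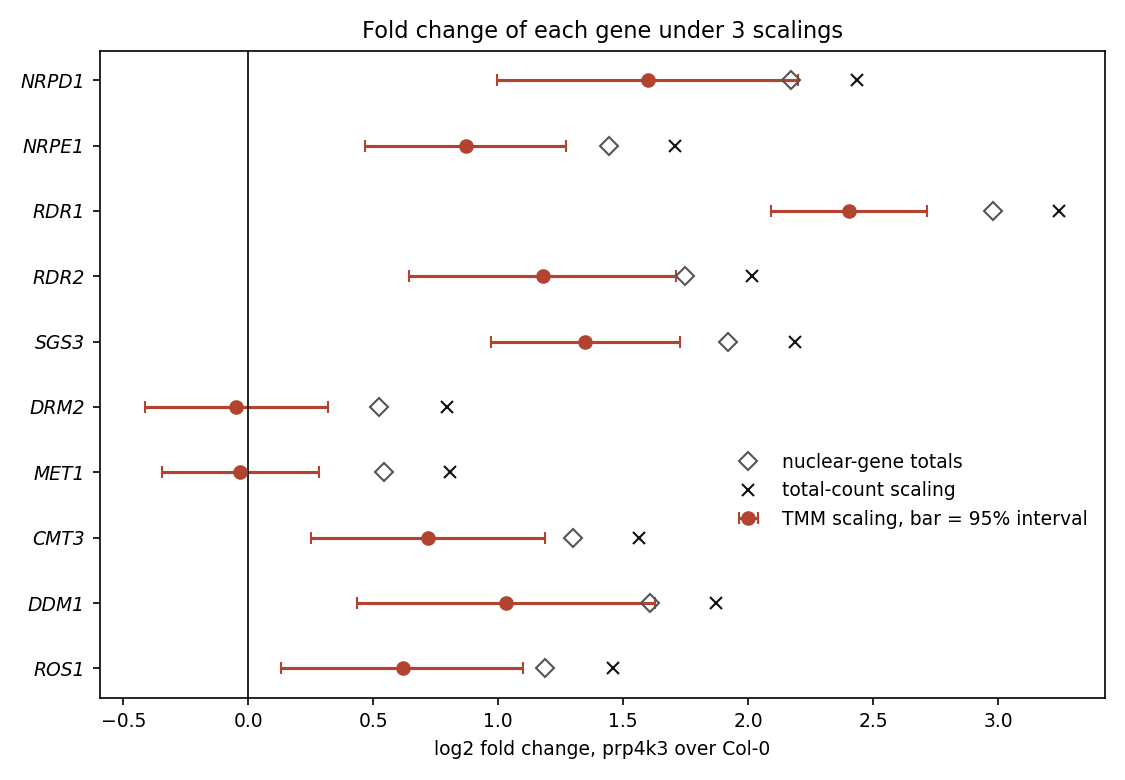
Log2 fold change of each gene, prp4k3 over Col-0 (horizontal axis), with TMM scaling and its 95% interval as filled circles and bars, nuclear-gene totals as diamonds and total counts as crosses. Each gene shifts to the right by a like amount, and DRM2 and MET1 are the genes whose sign depends on the scaling.

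Ratios between 2 of the genes within a library do not depend on scaling, and 7 such pairs were compared by raw counts. NRPD1 counts were 0.689, 0.856 and 0.606 of NRPE1 counts in prp4k3 replicates 1 to 3, against 0.423, 0.472 and 0.400 in Col-0. RDR1 counts were 5.30, 5.07 and 4.99 times RDR2 counts in prp4k3, against 1.69, 2.08 and 3.29 times in Col-0. Neither pair overlapped between genotypes, so NRPD1 was higher relative to NRPE1, and RDR1 relative to RDR2, in every prp4k3 library. The difference in log2 ratio was 0.72 for NRPD1 to NRPE1 and 1.18 for RDR1 to RDR2. With 0.5 CPM (scaled to total counts) added to each gene, these became 0.39 and 1.35.

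The other chromatin genes were set against MET1 or DRM2, the genes that were not called. DDM1 counts were 0.585, 0.346 and 0.527 of MET1 counts in prp4k3, against 0.230, 0.219 and 0.265 in Col-0, and the difference in log2 ratio was 1. ROS1 counts were 1.04, 2.07 and 1.12 times MET1 counts in prp4k3, against 0.976, 0.833 and 0.839 in Col-0, a difference of 0.61 in log2 ratio. ROS1 set against DRM2 gave 2.09, 3.67 and 2.15 in prp4k3, against 1.44, 1.90 and 1.69 in Col-0, also a difference of 0.61. The groups were apart in these 3 pairs. Without prp4k3 replicate 2 the difference was 0.295 for ROS1 to MET1, 0.348 for ROS1 to DRM2 and 1.23 for DDM1 to MET1. CMT3 to MET1 overlapped, with 0.895, 0.760 and 1.07 in prp4k3 against 0.491, 0.400 and 0.774 in Col-0, and DRM2 to MET1 overlapped with a difference of -0.003. The two-sided exact permutation p was 0.1 for the 5 pairs that were apart, the smallest that 3 against 3 libraries allow, and 0.14 after Benjamini-Hochberg adjustment over the 7 pairs. It was 0.2 for CMT3 to MET1 (adjusted 0.233) and 0.9 for DRM2 to MET1 (adjusted 0.9).

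**Figure D3:**
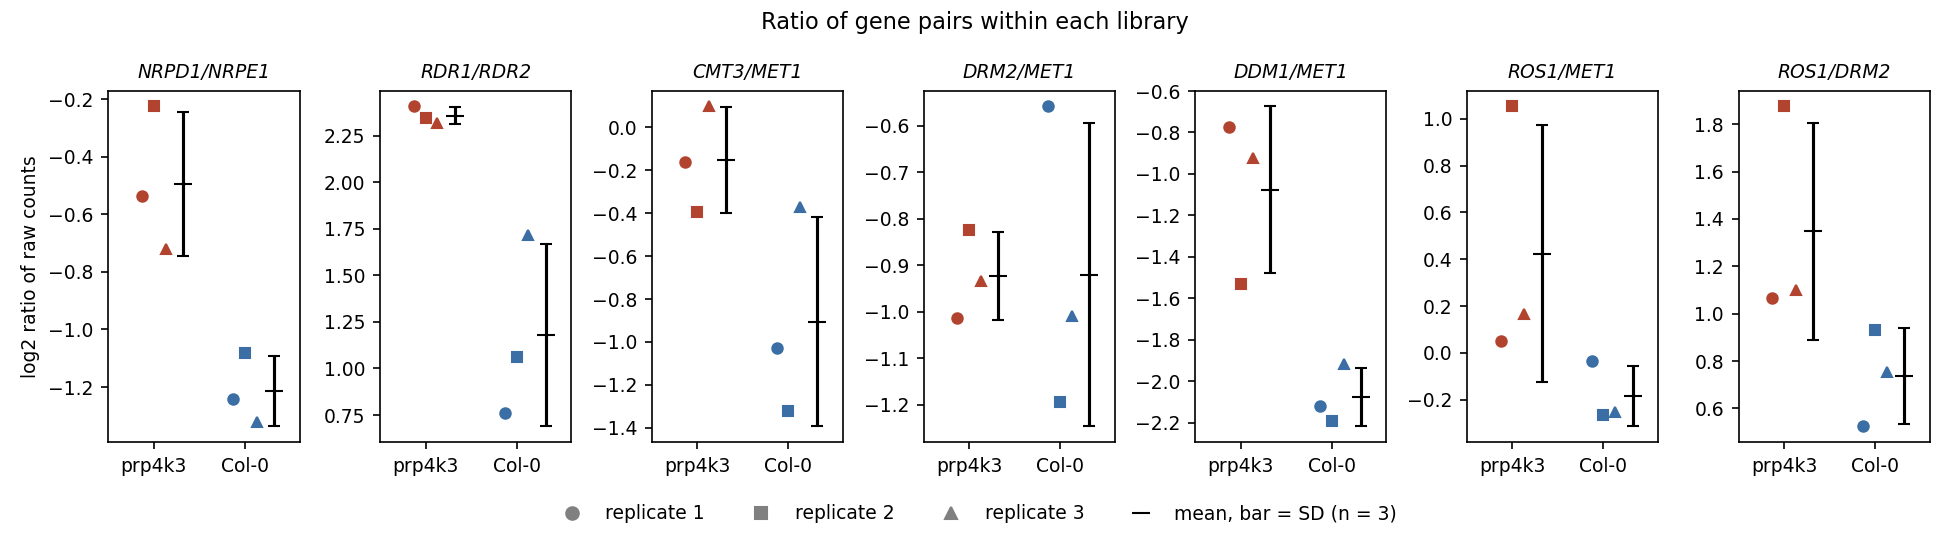
Log2 ratio of raw counts for 7 gene pairs (vertical axes differ between panels and do not start at 0) in the 3 prp4k3 and the 3 Col-0 libraries, with mean and SD. DRM2/MET1 overlaps fully between genotypes, and DDM1/MET1 lies near -1.08 on average in prp4k3 and -2.08 in Col-0.

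The rest of the machinery was read from 6 lists of other genes, 74 in all, of which 69 were tested. Of these, 38 were called higher and 5 lower, or 55.1% and 7.25%, beside 33.9% and 31.9% of all tested features, and their median log2 fold change was 0.53 against 0.02. Under total-count scaling 59 were called higher and 0 lower, and with nuclear-gene totals 52 and 0. Under these scalings 67.1% and 56% of all tested features were called higher, and 1825 and 2767 features lower.

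Among genes of RNA polymerases IV and V and their recruitment 5 of 11 tested rose and 1 fell, with a median log2 fold change of 0.22. These were 45.5% and 9.09%, beside 33.9% and 31.9% of all tested features. AT1G05490, which the reference table names chr31 (chromatin remodeling 31), had 47, 41 and 41 counts in prp4k3, against 2, 0 and 1 counts in Col-0. That is a ratio of 27.1 with an exact 95% counting interval of 9.07 to 133. CLSY1, a remodeller that recruits RNA polymerase IV, rose by 1.32 ± 0.38 (adjusted p = 0.00867). NRPD2A, the second subunit shared by RNA polymerases IV and V, averaged 14.9 ± 2.06 CPM in prp4k3 and 7.08 ± 0.0900 CPM in Col-0 (SD, n = 3 each) and rose by 1.07 ± 0.14 (adjusted p = 0.000101).

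For small RNA production and Argonaute loading, 2 of 5 tested genes rose and 0 fell. The share that rose was 40%, near the 33.9% of all tested features, of which 31.9% fell. AGO3, an Argonaute close in sequence to AGO2, had 56, 58 and 55 counts in prp4k3, against 9, 6 and 3 counts in Col-0, and rose by 2.55 ± 0.35 (adjusted p = 7.14e-05). HEN1, which methylates the ends of small RNAs, averaged 5.82 ± 1.04 CPM in prp4k3 and 2.02 ± 0.349 CPM in Col-0 (SD, n = 3 each) and rose by 1.53 ± 0.21 (adjusted p = 0.000150). Among genes of recruitment and effector steps 11 of 19 rose and 3 fell (57.9% and 15.8%, beside the same 33.9% and 31.9%). AT1G05120 rose by 1.56 ± 0.20, JMJ14, a histone H3 lysine demethylase, by 1.5 ± 0.18, and FRG1, an SNF2-type protein, by 1.21 ± 0.20 (adjusted p at most 0.000370). DRM1, the close relative of DRM2, was not tested, with 3 counts over the prp4k3 libraries and 0 over the Col-0 libraries.

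Maintenance genes other than the members rose in 7 of 11 tested and fell in 1. These were 63.6% and 9.09%, beside 33.9% and 31.9% of all tested features. MOM1, which keeps silencing in place without changing methylation, averaged 17.9 ± 1.06 CPM in prp4k3 and 5.86 ± 0.684 CPM in Col-0 (SD, n = 3 each) and rose by 1.61 ± 0.13 (adjusted p = 6.04e-06). IBM1, a histone demethylase that protects genes from CMT3, rose by 1.53 ± 0.15 (adjusted p = 1.51e-05), and SUVH5, a histone H3 lysine methyltransferase, by 1.40 ± 0.37 (adjusted p = 0.00533). Reads of VIM1, VIM2 and VIM3 may be shared, since these genes are close copies. Demethylation genes rose in 7 of 11 and fell in 0 (63.6% and 0%, beside the same 33.9% and 31.9%). DME, the glycosylase related to ROS1, averaged 28.1 ± 1.73 CPM in prp4k3 and 7.73 ± 0.803 CPM in Col-0 (SD, n = 3 each) and rose by 1.86 ± 0.12 (adjusted p = 1.90e-06). DML2, of the same family, rose by 1.56 ± 0.19, and ROS3, an RNA-binding protein of the pathway, by 1.05 ± 0.12 (adjusted p at most 6.83e-05).

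Partners of SGS3 and RDR1 in post-transcriptional silencing rose in 6 of 12 tested genes and fell in 0. These were 50% and 0%, beside 33.9% and 31.9% of all tested features. AGO2, known for its part in antiviral defence, rose by 2.32 ± 0.20 (adjusted p = 7.79e-06), DRB4, the partner of a Dicer, by 1.13 ± 0.20 (adjusted p = 0.000801), and AGO7 by 1.06 ± 0.18 (adjusted p = 0.000526). The 5 pathway genes that fell were named after their values were seen: NRPD4 (-0.73), RDM1 (-0.72), SWI3B (-0.71), HOG1 (-0.55) and SUVH2 (-0.47), with adjusted p between 0.000906 and 0.0211. Each of them lay above 0 under total-count scaling, between 0.11 and 0.37, where the median of all tested features was 0.86. With nuclear-gene totals NRPD4 (-0.15), RDM1 (-0.15) and SWI3B (-0.14) lay below 0, and SUVH2 (0.10) and HOG1 (0.03) above it. The sign of their change thus depended on the scaling.

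**Figure D4:**
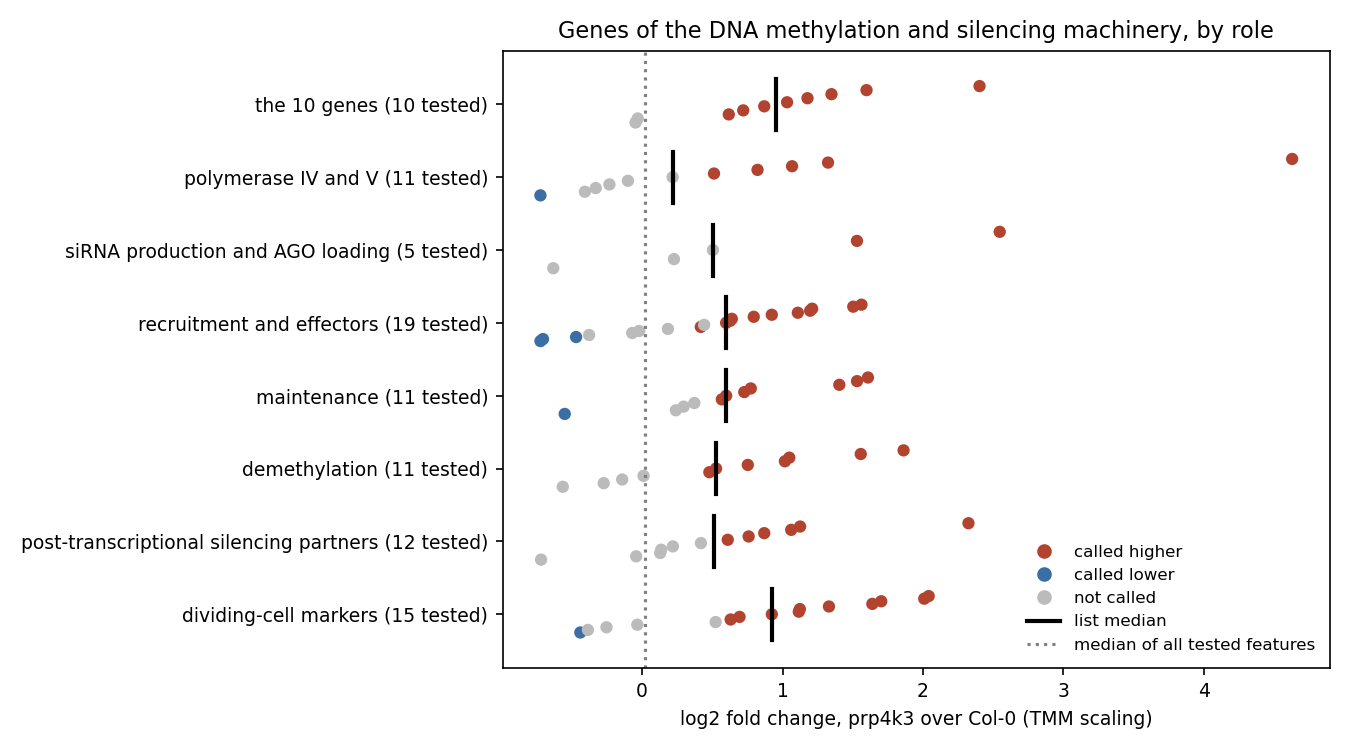
Log2 fold change of every tested gene by role (horizontal axis, TMM scaling), coloured by call, with black bars for list medians and a dotted line for the median of all tested features at 0.02. The 10 genes and the dividing-cell markers have the medians farthest to the right, at 0.95 and 0.92, and the point at 4.63 is chr31, whose fitted value depends on 3 counts in Col-0.

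MET1, CMT3 and DDM1 are known from dividing cells, so markers of cell division were read beside them. Of 15 markers, 10 were called higher and 1 lower, beside 33.9% and 31.9% of all tested features, and their summed level was 145, 129 and 144 CPM in prp4k3, against 64.4, 67.4 and 70.3 CPM in Col-0. Under total-count scaling 15 were called higher and 0 lower, and with nuclear-gene totals 12 and 0. Of all tested features 67.1% and 56% were called higher under these scalings. The replication genes MCM2, MCM6 and RNR1 rose by 2.04 ± 0.15, 2.01 ± 0.19 and 1.70 ± 0.13 (adjusted p at most 1.21e-05). Markers of mitosis were mixed. CDKB2;1, a kinase of the G2 to M step, fell by 0.44 ± 0.15 (adjusted p = 0.0235), and it lay at 0.40 under total-count scaling and lost the call without Col-0 replicate 2 (adjusted p = 0.0923). AUR1 (-0.39), CDKB2;2 (-0.25) and CDKB1;1 (-0.03) were not called, nor was CYCB1;1 (0.52), while KNOLLE rose by 0.63 and CYCB1;2 by 0.69. Within prp4k3 the summed level was lowest in replicate 2, as were MET1, CMT3 and DDM1. But the markers MCM2, CYCB1;1, CYCB1;2, CDKB2;2 and KNOLLE were highest in that library. The part of cell division in these results was not tested. Markers of shoot apex and flower gave 2 higher and 1 lower of 3 tested among 8 (0 lower under total-count scaling), with summed levels of 15.3, 8.45 and 8.97 CPM in prp4k3, against 8.04, 11.3 and 9.40 CPM in Col-0. AP1, a flower identity gene, had 42, 11 and 25 counts in prp4k3, against 0, 2 and 1 counts in Col-0, a ratio of 16.4 with an exact 95% counting interval of 5.41 to 81.2. KNAT1, a gene of the apex and stem, rose by 0.89 ± 0.28 (adjusted p = 0.0164), a call lost without Col-0 replicate 1 (adjusted p = 0.0634), Col-0 replicate 3 (0.0593) or prp4k3 replicate 1 (0.0690). STM, the apex marker called lower, fell by 0.96 ± 0.24 (adjusted p = 0.00599). Under total-count scaling STM lay at -0.11 (adjusted p = 0.685). WUS, a marker of the stem cell niche, had 5 counts over the prp4k3 libraries and 0 over Col-0. CLV3, also of the apex list, had 0 counts over the prp4k3 libraries and 3 over Col-0. The part of flower and apex tissue in the results was not tested. Among root markers 0 of 2 tested were higher and 1, SHR, was lower (above 0 under total-count scaling), with summed levels between 18.7 and 27.95 CPM in prp4k3 and between 28.6 and 43.6 CPM in Col-0, and PLT1 had 0 counts in every library.

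Loci known as readouts of silencing were mostly near the floor. SDC, an F-box gene kept silent by DNA methylation in leaves, had 2, 2 and 7 counts in prp4k3, against 0 counts in each Col-0 library, which is at least 2.31-fold higher when Col-0 is set to a floor of 3 counts over the group. It did not pass the filter on low counts, and in the fit with no filter it was called higher (adjusted p = 0.0296). FWA had 2 counts over the prp4k3 libraries and 0 over Col-0, PHE1 had 2 and 1, and QQS had 0 in every library. EPF2, a peptide gene of stomatal patterning whose promoter ROS1 keeps free of methylation, averaged 1.35 ± 0.169 CPM in prp4k3 and 3.96 ± 0.915 CPM in Col-0 (SD, n = 3 each) and fell by 1.55 ± 0.23 on the log2 scale (adjusted p = 0.000209). It also fell under total-count scaling, by 0.71 (adjusted p = 0.0180). Rows of transposable elements held 0.0704%, 0.0699% and 0.0667% of counts in prp4k3, against 0.0407%, 0.0412% and 0.0400% in Col-0. These are shares of total counts, a scale on which the median log2 fold change of all tested features was 0.86. The summed level of these rows on the TMM scale was not computed, so a rise beyond that of the median feature is not shown. The lower plastid share of prp4k3 also raises the shares of other rows. Nuclear genes held 60.3%, 61% and 59.3% of counts in prp4k3, against 48.2%, 51.2% and 50.8% in Col-0. The part of the plastid share in the transposon values was not tested.

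The small RNA table lists named miRNAs alone. The small interfering RNAs of the pathway are therefore not covered, and levels are relative to other miRNAs. Small RNA libraries held between 305617 and 636914 counts in prp4k3 and between 792586 and 1156591 counts in Col-0. The small RNA library prp4k3 replicate 2, the deepest of its group with 636914 counts, stood apart: its chi-square per degree of freedom was 257 and 262 against replicates 1 and 3, which differed from each other by 8.71, and the Col-0 pairs gave 31.1 to 68.7. Without it 52 miRNAs were called higher and 51 lower, against 40 and 40 with all libraries. Of 215 tested miRNAs 37.2% were called, 18.6% of them higher, as shares of all those tested. Of the miRNA families known to target DNA methylation genes, 3 were read, and 1 of their features was called.

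The feature ath-miR823, known to guide cleavage of CMT3 transcripts, had 233, 171 and 296 CPM in prp4k3, against 204, 277 and 231 CPM in Col-0. The groups overlapped, with a log2 fold change of -0.03 ± 0.23 (adjusted p = 0.904) and an interval of 0.681 to 1.41 for the fold. Without prp4k3 replicate 2 it lay at 0.18 (adjusted p = 0.465). Levels of ath-miR402, named as a regulator of DML3, were 165, 135 and 129 CPM in prp4k3, against 88.2, 91.2 and 135 CPM in Col-0, also with overlap (log2 fold change 0.44 ± 0.24, adjusted p = 0.167; without prp4k3 replicate 2, 0.51 and 0.0843). DML3 itself lay at -0.57 ± 0.29 (adjusted p = 0.106).

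By contrast, ath-miR773a, known to target the MET1 relative MET2, had 1328, 916 and 1191 CPM in prp4k3, against 332, 304 and 283 CPM in Col-0. Its groups were far apart, and it rose by 1.90 ± 0.18 (adjusted p = 0.000410), a fold of 3.73 (95% interval 2.80 to 4.97). Without prp4k3 replicate 2 it rose by 2.06 (adjusted p = 8.76e-10). MET2 was not tested, with 6 counts over the prp4k3 libraries and 2 over the Col-0 libraries. The features ath-miR773b-3p and ath-miR773b-5p had 1 and 0 counts over all 6 libraries.

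**Figure D5:**
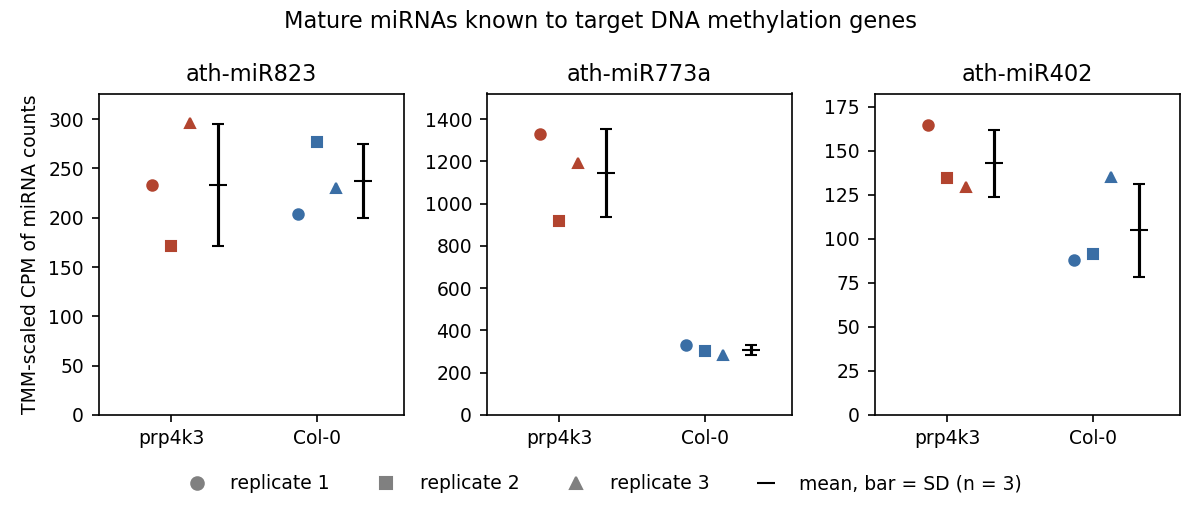
TMM-scaled CPM of 3 mature miRNAs (vertical axes from 0, one scale per panel) in the 3 prp4k3 and the 3 Col-0 libraries, with mean and SD. The prp4k3 libraries of ath-miR773a lie between 916 and 1328 CPM, all above Col-0, while ath-miR823 and ath-miR402 overlap between genotypes.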

How the data were processed

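RNA-seq and small RNA-seq of leaves were analysed, with 3 libraries per genotype in each. Read counts per feature were used as the authors deposited them. TopHat2, SAMtools, HTSeq and edgeR are named by the submitters' processing notes, without versions, roles or a genome build. The deposited tables also hold a normalized score for each library in whole numbers, per the file headers, which was not used, and the authors' fold (ratio), log2 fold change and p-value per feature.

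Tests on counts used edgeR 4.0.16 (R 4.3.3, limma 3.58.1): filterByExpr, TMM factors, quasi-likelihood F-test of genotype, two-sided, Benjamini-Hochberg adjustment over all tested features, called under 0.05. Values after ± are SE for log2 fold changes and SD over 3 libraries for levels. In simulated RNA data on 18609 features, 200 genes were changed in random directions, with a single dispersion and no shift in plastid share. Of genes changed by 1 log2 unit 83.8% were recovered, and of those changed by 2, 96.0%, while 6.74% of calls were false. In the real data 65.8% of features were called, so these rates need not hold there.

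A floor of 3 counts equals 0.155 to 0.187 CPM per RNA library and 2.59 to 9.82 CPM per small RNA library. No molecular identifiers were described, so intervals and floors speak for counting error alone. No 2 libraries within a genotype agreed within sampling noise, and each was counted as 1 replicate. Such spread may be technical, so it does not show that the libraries come from different plants. Small RNA prp4k3 replicate 2 stood farthest apart. Alternatives were RLE factors, total-count scaling, nuclear-gene totals, removal of organelle and rRNA genes, DESeq2 1.42.0, 2 other filters, a replicate block and each library left out.

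The members and lists were chosen with earlier results of these data known. Named genes are all members, up to 3 called genes per list with the largest change and at least 1 CPM, and all features of the 3 miRNA families. Of 127 listed genes 126 were in the RNA table and 112 listed names matched the reference table of assembly TAIR10.1; other genes are printed by its symbol or by locus. Levels per coding length and promoter letters had been planned and were not run, since no lengths, promoters or proteins of these genes were used here.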

Additional observations from a re-analysis of the deposited data

How the results depend on the processing

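Of the 10 genes, 8 were called higher with RLE factors, DESeq2, both other filters, organelle genes left out and the replicate block, and 10 under total-count scaling and nuclear-gene totals; with single libraries left out the count was 6 to 8 (6 without Col-0 replicate 2). NRPD1, NRPE1, RDR1, RDR2, SGS3 and DDM1 kept call and direction in every alternative. Leaving out single libraries gave 0.60 to 0.93 for CMT3 and 0.31 to 0.77 for ROS1. DRM2 turned positive with total counts (0.79) and nuclear-gene totals (0.52) and ranged from -0.16 to 0.11 with libraries left out. MET1 turned positive with total counts (0.81), nuclear-gene totals (0.54) and no filter (1.02e-05) and ranged from -0.134 to 0.0695. The DRM2 to MET1 log2 ratio ranged from -0.14 to 0.18. Over all features total counts gave 12481 higher and 1825 lower, and nuclear-gene totals 10401 and 2767, against 6310 and 5943. The 74 pathway genes gave 59 higher and 0 lower with total counts, 0 lower with nuclear-gene totals, and 4 to 8 lower with libraries left out (8 without Col-0 replicate 1). Under total-count scaling AT3G25840 lay at 0.16 and SHR, a root marker, at 0.24 (TMM -0.61). For ath-miR823 the log2 fold change was 0.0706 with RLE factors, 0.0728 with total counts, 0.0705 with DESeq2, 0.051 with no filter and -0.0398 to 0.217 with libraries left out. Small RNA calls lower in prp4k3 numbered 40, 25 with total counts and 24 to 51 with libraries left out (24 without prp4k3 replicate 1, 25 without Col-0 replicate 1), and calls higher 28 to 52. The cause of these shifts was not tested. Same-numbered libraries showed no shared deviation (r of -0.05, 0.06 and -0.05 in RNA, and -0.25, -0.01 and -0.09 in small RNA). With 3 libraries per genotype this cannot exclude that they were paired. The replicate block changed no call of the 10 genes (0.59 for ROS1, adjusted p = 0.0123, and 0.72 for CMT3). Depth limits SDC, FWA, MET2 and DRM1, which did not pass the filter: with no filter SDC was called higher (adjusted p = 0.0296), and FWA (0.395), MET2 (0.552) and DRM1 (0.295) were not.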
